A study of Homo sapiens with 6 samples.

Results

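A set of 10 transcription factors that establish and maintain epithelial identity was followed in keratinocyte RNA. They are TP63, GATA3, ELF3, EHF, KLF4, KLF5, GRHL1, GRHL2, OVOL1 and ZNF750. They were taken by gene symbol, and all 10 have an entry among the 16551 protein-coding genes of the table, of which 9 passed the filter on low counts. The series compares 3 libraries labelled si-YTHDF2 with 3 labelled NC, both from HaCaT, an immortalised line of human keratinocytes. By convention si-YTHDF2 denotes a small interfering RNA directed at YTHDF2 and NC a negative control, and the labels give no sequence, dose, time or culture condition for either group. The series title places YTHDF2 in psoriasis, with proliferation, inflammation and Wnt signaling. No label says that replicates came from separate cultures, so each p-value reflects the spread among these 6 libraries, which could be technical alone.

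Epithelial lineage factors work as a network. In stratified epithelium p63 keeps basal cells in the epidermal lineage and opens regulatory DNA for other factors, Grainyhead-like proteins maintain the junction genes, and KLF4, OVOL1 and ZNF750 act as cells leave the cycle and cornify. ELF3 and EHF are ETS proteins restricted to epithelia, and GATA3 and KLF5 serve both squamous and glandular or simple epithelia. YTHDF2 is a cytoplasmic reader of N6-methyladenosine (m6A) in mRNA that promotes decay of the RNAs it binds.

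The library totals ran from 19803707 to 22698069 counts, and the counts of each gene were scaled to counts per 1000000 (CPM). YTHDF2 had 43.0, 48.4 and 43.5 CPM in the si-YTHDF2 libraries, against 74.6, 77.5 and 83.8 CPM in the NC libraries, with a log2 fold change (si-YTHDF2 over NC, as throughout) of -0.81 (edgeR's quasi-likelihood test, adjusted p = 4.13e-07). Of 10 keratinocyte markers all were detected, and their summed level was 4938 to 5440 CPM in si-YTHDF2 and 5541 to 5760 CPM in NC. The basal keratin KRT14, the usual partner of KRT5, was nearly absent, at a mean of 2.00 CPM in si-YTHDF2 and 2.22 CPM in NC. KRT5 averaged 2384 CPM in si-YTHDF2 and 2029 CPM in NC. KRT15, another of the 10, averaged 264 CPM in si-YTHDF2 and 865 CPM in NC (log2 fold change -1.71). Of the 10 markers, 5 lay wholly below NC in si-YTHDF2 and 2 wholly above. Among all genes that passed the filter on low counts, 28.7% lay wholly below NC and 29.9% wholly above. The 5 simple-epithelium markers summed to 4990 to 5546 CPM in si-YTHDF2 and 6777 to 7106 CPM in NC. The NC libraries differed widely among themselves in suprabasal genes: KRT1, the keratin of the spinous layer, had 339, 286 and 244 counts in si-YTHDF2, and 5, 126 and 888 counts in NC replicates 1, 2 and 3. Filaggrin (FLG) followed the same order, with 316, 234 and 253 counts in si-YTHDF2 and 2, 105 and 769 in NC.

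Of the 10 factors, 8 fell in si-YTHDF2 and KLF4 rose, while ZNF750 had too few counts to enter the test. A gene was called at an adjusted p under 0.05, by edgeR's quasi-likelihood test with Benjamini-Hochberg adjustment over 12264 genes. The background was 25.2% of all tested genes called lower and 26.1% called higher. Among the 794 tested genes that the deposited gene ontology terms describe as sequence-specific transcription factors, 30.7% were called lower and 19.1% higher. The median log2 fold change was -0.71 over the 9 tested factors, -0.05 over the annotated transcription factors and 0.01 over all tested genes. The decreases were graded: ELF3, GATA3, KLF5 and GRHL1 were 4.02-fold, 3.35-fold, 2.79-fold and 2.29-fold lower, OVOL1, EHF and GRHL2 between 1.43-fold and 1.63-fold lower, and TP63 1.22-fold lower. In all 9 the libraries of the groups did not overlap; over all tested genes 28.7% lay without overlap below NC and 29.9% above it. Each of the 9 kept its direction and its call under all 14 alternative fits. In bulk RNA, fewer cells that express a factor and less of its RNA per cell cannot be told apart. The plot of levels by library shows each group for all 10, with overlap for ZNF750.

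**Figure D1:**
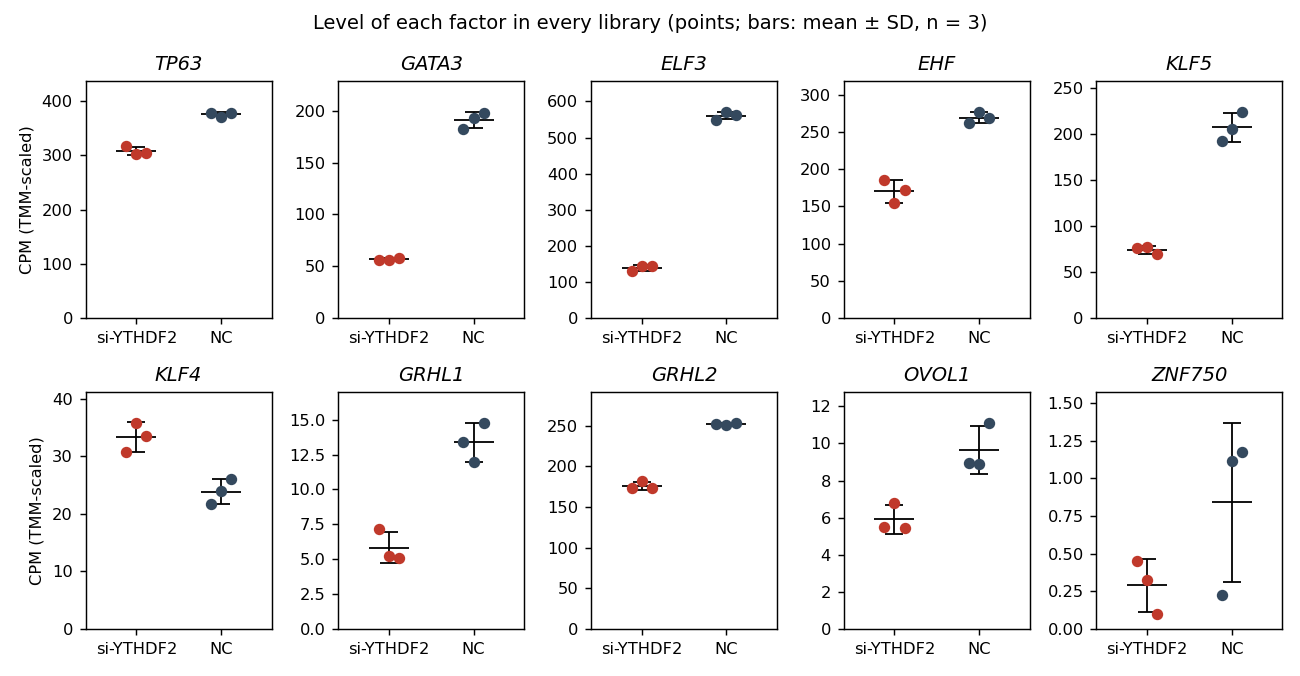
Level of each factor in CPM (TMM-scaled, linear axes from 0) in every library, si-YTHDF2 left and NC right, with the mean and SD of 3 libraries. The si-YTHDF2 points lie below all NC points for 8 factors and above them for KLF4, and the groups overlap for ZNF750, which stays below 1.2 CPM.

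TP63 (ENSG00000073282; chromosome 3, plus strand, 189631416 to 189897279, GRCh38 as for all positions) encodes p63, the master regulator of stratified epithelium. It had 317, 304 and 304 CPM in the si-YTHDF2 libraries, against 378, 372 and 379 CPM in the NC libraries. Every si-YTHDF2 library was below every NC library, with a gap far wider than the spread inside NC. The log2 fold change was -0.29 ± 0.05 (SE; edgeR, adjusted p = 1.62e-04), which left 81.9% of the NC level, the smallest decrease among the 8. Gene counts do not separate the long isoforms that carry the transactivation domain from the shorter isoforms that dominate in basal keratinocytes. Its close relative TP73, a gene of low level here, fell by 2.42 on the log2 scale to 1.05 ± 0.173 CPM in si-YTHDF2, against 5.64 ± 0.596 CPM in NC (SD, n = 3 each).

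ELF3 and EHF, the ETS factors of epithelia, both fell, ELF3 by much more. ELF3 (ENSG00000163435; chromosome 1, plus strand, 202007945 to 202017188), which activates genes of simple and differentiating epithelium, had 130, 146 and 143 CPM in si-YTHDF2, against 550, 570 and 562 CPM in NC. The highest si-YTHDF2 library was far under the lowest NC library, and 24.9% of the NC level remained. The log2 fold change was -2.01 ± 0.05 (SE; edgeR, adjusted p = 6.80e-12), the largest decrease of the 9 tested factors and rank 16 from the most negative among the 794 annotated transcription factors tested. In GENCODE 29, 664 bases of its exons are shared with the antisense gene ELF3-AS1 and 664 with AL691482.3 on its own strand. Without a statement on strand, reads of overlapping genes cannot be told apart there. EHF (ENSG00000135373; chromosome 11, plus strand, 34621093 to 34661057), an activator and repressor in glandular and stratified epithelium, had 185, 154 and 172 CPM in si-YTHDF2, against 262, 277 and 269 CPM in NC. Its si-YTHDF2 libraries varied more than its NC libraries and still did not overlap them. Its log2 fold change was -0.66 ± 0.06 (SE; edgeR, adjusted p = 1.56e-06). The close epithelial relatives ELF5 and SPDEF were nearly silent, with 1, 0 and 0 counts of ELF5 in si-YTHDF2 and 0, 1 and 0 in NC. Of the 5 other ETS and ELF genes tested, 4 fell and 1 rose, where 25.2% of all tested genes were called lower and 26.1% higher. The widely expressed ETS1 (-1.17) and ETS2 (-0.93) fell most, and ELF2 (-0.37) fell less. ELF4 rose by 0.24, a call that was lost without si-YTHDF2 replicate 2 (0.18) or NC replicate 2 (0.22). The decrease of ELF1 (-0.16) was not called with library totals (-0.10), without si-YTHDF2 replicate 2 (-0.15) or without NC replicate 3 (-0.14).

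The Kruppel-like pair went in opposite directions. KLF5 (ENSG00000102554; chromosome 13, plus strand, 73054976 to 73077542), which sustains proliferation of basal epithelial cells, had 75.8, 77.3 and 69.4 CPM in si-YTHDF2, against 193, 205 and 224 CPM in NC. All 3 si-YTHDF2 libraries were well under the NC libraries, and 35.8% of the NC level remained. The log2 fold change was -1.48 ± 0.07 (SE; edgeR, adjusted p = 7.91e-10). KLF4 (ENSG00000136826; chromosome 9, minus strand, 107484852 to 107490482), which drives barrier formation and cell cycle exit in the upper epidermis, had 30.7, 35.9 and 33.6 CPM in si-YTHDF2, against 21.6, 24.0 and 26.0 CPM in NC. The lowest si-YTHDF2 library exceeded the highest NC library. The log2 fold change was 0.48 ± 0.09 (SE; edgeR, adjusted p = 5.55e-04), 1.40-fold of NC. KLF4 is also expressed in monocytes. The 8 myeloid markers in the table summed to 14.9 to 19.0 CPM in si-YTHDF2 and 4.25 to 5.28 CPM in NC. Of the 8, 7 were higher on average in si-YTHDF2. The other, CD14, averaged 1.93 CPM in si-YTHDF2 and 3.19 CPM in NC (log2 fold change -0.72, edgeR, adjusted p = 0.0255). The part of myeloid RNA in the KLF4 result was not tested. Of the 10 other KLF genes tested, 5 fell and 1 rose, where 25.2% of all tested genes were called lower and 26.1% higher. KLF9, a glucocorticoid-induced member, fell to 2.57 ± 0.126 CPM in si-YTHDF2, against 14.0 ± 0.726 CPM in NC (SD, n = 3 each), and KLF10, an early target of TGF-beta, fell by 1.02. KLF12 (-0.44), KLF8 (-0.43) and KLF3 (-0.40) fell less. KLF6 rose by 0.37. KLF2, at under 1 CPM in every library, did not pass the test at 1.32 (edgeR, adjusted p = 0.0504) and was called without NC replicate 3 (1.78), with library totals (1.39) and with limma-voom (1.41). KLF16 (0.15; edgeR, adjusted p = 0.211) was called without si-YTHDF2 replicate 1 (0.26), and KLF7 (0.05; edgeR, adjusted p = 0.595) was at -0.04 without that library. KLF13 did not pass either (-0.58; edgeR, adjusted p = 0.270).

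ELF3 and KLF4, the factor with the largest decrease and the factor that rose, each have a single start among the RefSeq promoters, so the 250 bases before that start are shown for both (GRCh38.p14, 5′ to 3′ in the direction of transcription). Capitals mark matches, on either strand, to any of 7 motifs searched: the TATA box TATAAA, the GC box GGGCGGG, the CCAAT box (named by its letters), the GATA motif AGATAA, the ETS motif GGAAGT, the Grainyhead motif AACNGGTT and the Kruppel-like motif CCCCACCC; none overlaps another in these windows. The ELF3 window is chr1:202010337-202010586 on the plus strand, and the KLF4 window is chr9:107489770-107490019 on the minus strand. Both windows lie inside the genes at the positions given above. ELF3 begins there at 202007945 and KLF4, on the minus strand, at 107490482. The windows are thus not upstream of the first annotated base of either gene.
ELF3: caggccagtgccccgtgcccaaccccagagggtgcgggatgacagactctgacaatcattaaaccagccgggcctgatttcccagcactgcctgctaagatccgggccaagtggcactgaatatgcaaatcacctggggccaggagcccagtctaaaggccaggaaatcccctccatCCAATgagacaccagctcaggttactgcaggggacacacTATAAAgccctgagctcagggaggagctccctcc
KLF4: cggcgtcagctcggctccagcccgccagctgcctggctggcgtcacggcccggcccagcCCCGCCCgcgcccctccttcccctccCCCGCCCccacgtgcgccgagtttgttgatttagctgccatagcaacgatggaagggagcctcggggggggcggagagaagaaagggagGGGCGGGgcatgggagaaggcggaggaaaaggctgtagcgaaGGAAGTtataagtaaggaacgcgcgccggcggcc

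These windows differ in composition, with 58.4% G and C in ELF3 and 69.2% in KLF4. Counting back from the base next to the start, the ELF3 window holds a TATA box whose first base is 34 bases before the start, and a CCAAT box whose first base is 73 bases before it. TATAAA occurs in 7.23% of the 18331 promoter windows of the same length belonging to genes of the table, and CCAAT in 32.2%. The KLF4 window holds GC boxes that begin 191, 165 and 76 bases before the start and an ETS motif that begins 34 bases before it. GGGCGGG occurs in 44.3% of the windows and GGAAGT in 21.4%. Across 14 windows of 7 of the factors, 3 held TATAAA (of ELF3, GATA3 and KLF5), 7 held GGGCGGG, 8 held CCAAT and 2 held GGAAGT (of GATA3 and KLF4). AGATAA was found in 1 window, of EHF, against 6.24% of all windows. AACNGGTT was found in 0 of the 14, against 1.35% of all windows, and CCCCACCC in 2, of EHF and GATA3, against 12.2%. These are matches of letters in a short window and say nothing of binding.

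GATA3 had the largest decrease after ELF3. GATA3 (ENSG00000107485; chromosome 10, plus strand, 8045378 to 8075203) is a zinc finger factor of epidermis, hair follicle and luminal breast epithelium. It had 56.3, 56.4 and 58.3 CPM in si-YTHDF2, against 182, 193 and 197 CPM in NC. The si-YTHDF2 libraries were within 2 CPM of each other and all far below NC. The log2 fold change was -1.74 ± 0.06 (SE; edgeR, adjusted p = 2.65e-11), which left 29.9% of the NC level. GATA3 is also the lineage factor of helper T cells. The T cell receptor component CD3E had 8, 6 and 5 counts in si-YTHDF2 and 0, 0 and 2 in NC, and 8 of 9 T and innate lymphoid markers had a higher mean in si-YTHDF2, most of them at a few counts; their part in the GATA3 result was not tested. GATA2 fell less (-0.62; edgeR, adjusted p = 0.00114), and GATA6 did not pass the test (0.23; edgeR, adjusted p = 0.117), although it was called with library totals (0.30). TRPS1, a GATA-type repressor, did not pass (0.37; edgeR, adjusted p = 0.495).

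Both Grainyhead-like members fell, the scarcer GRHL1 by more. GRHL1 (ENSG00000134317; chromosome 2, plus strand, 9951693 to 10002277), an activator of desmosomal cadherin genes in the suprabasal epidermis, had 7.13, 5.26 and 5.10 CPM in si-YTHDF2, against 13.4, 11.99 and 14.8 CPM in NC. The groups were well apart, and the log2 fold change was -1.20 ± 0.15 (SE; edgeR, adjusted p = 1.95e-05). GRHL2 (ENSG00000083307; chromosome 8, plus strand, 101492432 to 101669726), which maintains E-cadherin and claudin expression and epithelial splicing, had 173, 182 and 173 CPM in si-YTHDF2, against 252, 252 and 254 CPM in NC. Its NC libraries were nearly identical and its si-YTHDF2 libraries all lower, and the log2 fold change was -0.52 ± 0.05 (SE; edgeR, adjusted p = 1.05e-06). GRHL3, the family member needed for skin barrier formation, also fell (-0.83; edgeR, adjusted p = 0.00874), to 2.17 ± 0.422 CPM in si-YTHDF2, against 3.86 ± 0.387 CPM in NC (SD, n = 3 each). The more distant CP2 relatives did not share this: TFCP2L1, a factor of pluripotent cells and kidney collecting ducts, rose by 1.30, and neither TFCP2 (0.04; edgeR, adjusted p = 0.709) nor UBP1 passed the test (0.12; edgeR, adjusted p = 0.0880; called at 0.19 with library totals).

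OVOL1 and ZNF750 belong to the differentiating layers. OVOL1 (ENSG00000172818; chromosome 11, plus strand, 65787022 to 65797219), a zinc finger repressor that helps keratinocytes leave the cycle, had 5.47, 6.78 and 5.44 CPM in si-YTHDF2, against 8.92, 8.89 and 11.1 CPM in NC. The log2 fold change was -0.71 ± 0.15 (SE; edgeR, adjusted p = 0.00159). Its 3 si-YTHDF2 libraries lay below NC, although its counts, 109 to 147 in si-YTHDF2 and 175 to 246 in NC, leave a wider error than for the abundant factors. OVOL1 shares 1044 bases of exon with an antisense gene, AP001266.1, and GRHL2 shares 50 with AP001207.3. OVOL2, which represses mesenchymal regulators, did not pass the test (0.15; edgeR, adjusted p = 0.311). ZNF750 (ENSG00000141579; chromosome 17, minus strand, 82829435 to 82840578), which p63 activates and which in turn promotes terminal differentiation, had 10, 7 and 2 counts in si-YTHDF2, against 5, 22 and 26 counts in NC. NC replicate 1 fell inside the si-YTHDF2 range, so the groups overlapped. With no low-count filter its log2 fold change was -1.49 and not called (edgeR, adjusted p = 0.0533). Without NC replicate 1 it passed the filter and was called at -1.94 (edgeR, adjusted p = 0.00699), and in the 4 other fits without a library that tested it the adjusted p ran from 0.0537 to 0.199. NC replicate 1 was also the library with 5 counts of KRT1 and 2 of FLG; the part of this in the ZNF750 counts was not tested.

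**Figure D2:**
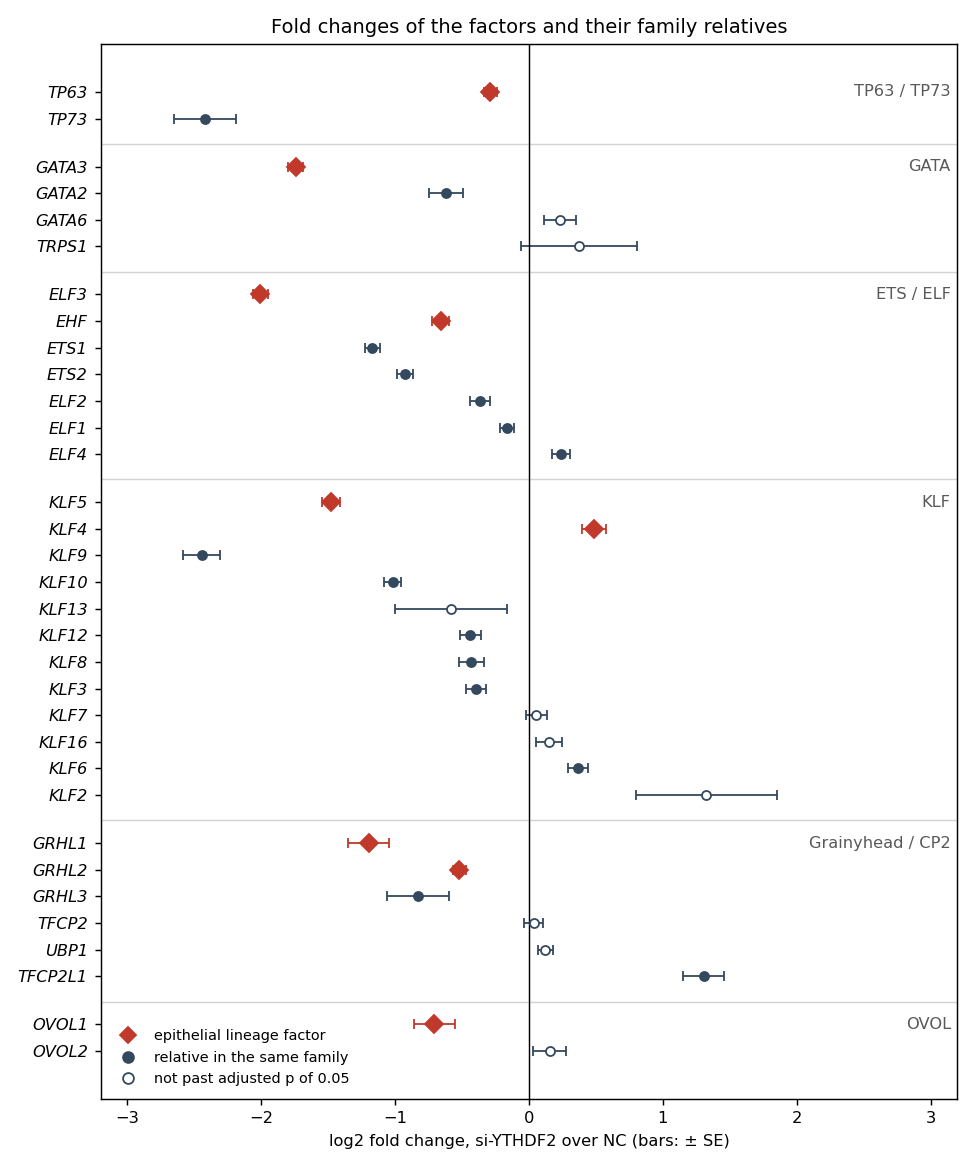
Log2 fold change, si-YTHDF2 over NC, with its standard error, for the 9 tested factors (diamonds) and the tested relatives in their families (circles; open where adjusted p was 0.05 or more). ELF3 is the leftmost of the diamonds at -2.01 and KLF4 the only diamond right of 0, while KLF9 and TP73 lie further left than any factor of the set.

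Ratios between related factors inside a library do not depend on how the libraries are scaled. ELF3 had 0.702, 0.943 and 0.832 counts per count of EHF in si-YTHDF2, against 2.10, 2.06 and 2.09 in NC, so the order of their counts changed. Counts take no account of gene length. Per kilobase of the median coding transcript, EHF was above ELF3 in both groups. The levels were 115 against 43.9 CPM per kb in si-YTHDF2, and 182 against 176 in NC. KLF5 had 2.47, 2.16 and 2.07 counts per count of KLF4 in si-YTHDF2, against 8.90, 8.54 and 8.61 in NC. The log2 ratio of KLF5 to KLF4 differed by -1.96, and that of ELF3 to EHF by -1.35. GRHL1 had 0.0411, 0.0289 and 0.0294 counts per count of GRHL2 in si-YTHDF2, against 0.0531, 0.0476 and 0.0582 in NC. The ratio of OVOL1 to OVOL2 was 0.498, 0.607 and 0.462 in si-YTHDF2, against 1.01, 0.803 and 1.05 in NC. GATA3 had 5.36, 4.22 and 6.11 counts per count of GATA2 in si-YTHDF2, against 9.76, 11.9 and 11.9 in NC. TP63 to TP73 went the other way, at 372, 263 and 264 in si-YTHDF2 and 71.3, 70.4 and 59.9 in NC. The groups did not overlap in any of these 6 ratios. For each, a two-sided exact permutation test on the log2 ratio had p = 0.1, which is the lower bound for 3 libraries against 3 (also after adjustment over the 6), so no ratio could pass 0.05. The plot of ratios gives every library.

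**Figure D3:**
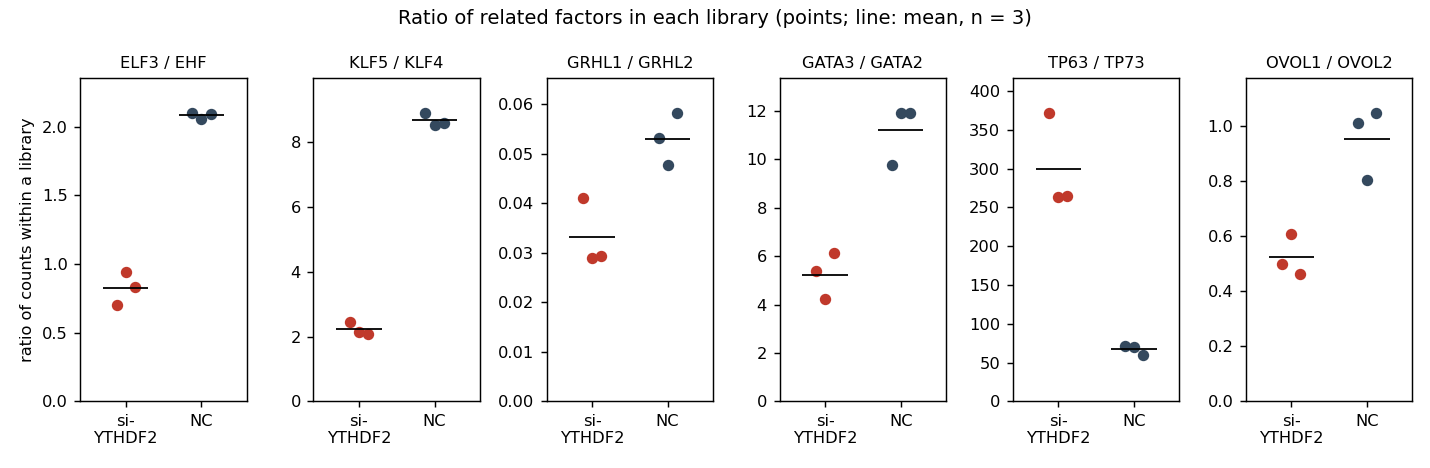
Ratio of the counts of related factors within each library (linear axes from 0), si-YTHDF2 left and NC right, with the mean of 3 libraries as a line. The ELF3 to EHF ratio is under 1 in each si-YTHDF2 library and above 2 in each NC library, and only TP63 to TP73 is higher in si-YTHDF2.

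Levels were compared between factors per kilobase of annotated exon (the union of a gene's exons in the GENCODE 29 basic set). Summed over the 10 factors the level was 202, 198 and 198 CPM per kb in si-YTHDF2, against 384, 398 and 405 CPM per kb in NC. In si-YTHDF2 the order was TP63 (47.2 CPM per kb), EHF (43.2), GRHL2 (33.2), ELF3 (22.6), KLF5 (19.8), GATA3 (18.3), KLF4 (11.4), OVOL1 (1.76), GRHL1 (1.61) and ZNF750 (0.0782). The ranges of TP63 and EHF, of KLF5 and GATA3 and of OVOL1 and GRHL1 overlapped there. In NC the order was ELF3 (90.8 CPM per kb), EHF (68.1), GATA3 (61.1), TP63 (57.7), KLF5 (55.3), GRHL2 (47.7), KLF4 (8.14), GRHL1 (3.70), OVOL1 (2.87) and ZNF750 (0.226), and only TP63 and KLF5 overlapped as neighbours. ELF3 made up 10.4 to 11.9% of the summed level in si-YTHDF2 and 22.5 to 23.2% in NC. TP63 made up 23.5 to 24.1% in si-YTHDF2 and 14.3 to 15.1% in NC, although its own level was lower in si-YTHDF2. The order depends on the length used: per kilobase of the median coding transcript, ELF3 at 176 CPM per kb came after TP63 at 185 and EHF at 182 in NC. In NC, ELF3 lay above 97.2% of the tested annotated transcription factors per kilobase of exon, and in si-YTHDF2 above 85.4%. GATA3 lay above 81.0% in si-YTHDF2 and 95.1% in NC, and TP63 above 94.6% in both groups.

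Genes linked to these factors were examined in 4 lists, with 2 further lists of other epidermal transcription factors and of the mesenchymal program. The 4 lists, called targets for short, mix reported targets with general epithelial genes. Whether the factors regulate them in these cells was not tested. Over all tested genes 25.2% were called lower and 26.1% higher, the background for every list. Some genes stand in more than 1 list, among them TGM1, CLDN7 and CDH1. In the list for ELF3, EHF and simple epithelium, 10 of 13 tested genes fell (76.9%), 2 rose (15.4%) and 1 did not pass the test. The median log2 fold change was -0.52. KRT4, a keratin of mucosal epithelium that ELF3 can regulate, had 6.77, 8.63 and 10.2 CPM in si-YTHDF2. In NC it had 498, 505 and 497 CPM (-5.88; edgeR, adjusted p = 2.35e-14). The list was not split by whether a factor raises or lowers a gene, and the direction in which ELF3 acts on KRT4 was not tested. The mucin MUC16 fell by 2.27 and the secreted protein gene WFDC2 by 1.43. KRT19 fell by 0.52, KRT8 by 0.36 and KRT18 by 0.26, all keratins of simple epithelium. LCN2, a siderophore-binding protein gene and a known ELF3 target, rose by 0.99, and TGFBR2, another reported ELF3 target, rose by 0.34. SPRR2A and MUC20 had too few counts to be tested.

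The Grainyhead list, which holds junction and splicing genes of epithelia, had calls only downward in the main fit. Of 17 tested genes, 9 fell (52.9%) and 0 rose by edgeR. The count that rose was also 0 at an unadjusted p under 0.05 and with DESeq2 or limma-voom. It was 2 with library totals, and 1 without si-YTHDF2 replicate 1, NC replicate 2 or NC replicate 3. The median log2 fold change was -0.30. The claudin CLDN7 averaged 175 ± 14.3 CPM in si-YTHDF2 and 286 ± 10.3 CPM in NC (SD, n = 3 each; -0.71; edgeR, adjusted p = 6.42e-07). PROM2 (-0.71), the receptor ERBB3 (-0.50), RAB25 (-0.53), CLDN4 (-0.40), CLDN1 (-0.39) and the epithelial splicing factor ESRP1 (-0.29) fell as well. E-cadherin (CDH1) averaged 327 ± 11.5 CPM in si-YTHDF2, against 311 ± 8.55 CPM in NC (SD, n = 3 each), and did not pass the test (0.07; edgeR, adjusted p = 0.261). Neither did EPCAM (0.11; edgeR, adjusted p = 0.161) or ESRP2 (0.03; edgeR, adjusted p = 0.727).

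In the p63 list 22 genes were tested. Of these 5 rose (22.7%, against 26.1% of all tested genes) and 9 fell (40.9%, against 25.2%). The other 8 did not pass the test, and the median log2 fold change of the list was -0.11. The count that fell was 5 with library totals, without NC replicate 3 or at an adjusted p under 0.01. CLCA2 averaged 25.7 ± 0.997 CPM in si-YTHDF2 and 78.8 ± 1.06 CPM in NC (SD, n = 3 each; -1.62; edgeR, adjusted p = 1.63e-10), the kinase gene RIPK4 fell by 0.98 and the protease inhibitor CSTA by 0.90. S100A2 rose by 0.67, the growth factor receptor FGFR2 by 0.79 and the hemidesmosomal collagen COL17A1 by 0.64. KRT5 rose by 0.23.

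In the terminal differentiation list, drawn up for KLF4 and ZNF750, 17 genes were tested. Of these 2 rose (11.8%), 6 fell (35.3%) and 9 did not pass the test, with a median of -0.21. KRT80 rose by 0.69, and involucrin (IVL, -1.39), TGM1 (-1.86) and ABCA12 (-0.40) fell. The lipoxygenase gene ALOX12B rose by 1.48, a call lost without si-YTHDF2 replicate 2 (0.86) or NC replicate 1 (1.16). The count of genes that rose was 8 without NC replicate 3, the library with 888 counts of KRT1 and 769 of FLG, and 1 without si-YTHDF2 replicate 2, at a mean count of at least 50 or at an adjusted p under 0.01. A further 7 genes of this list, among them LOR and SPRR1B, had too few counts to be tested.

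Of 28 other epidermal transcription factors tested, 12 fell (42.9%), 4 rose (14.3%) and 12 did not pass the test, with a median of -0.08. Among all annotated transcription factors tested, 30.7% were called lower and 19.1% higher. The Notch effector HES1 fell by 1.14, IKZF2 by 1.08 and FOXQ1 by 1.33. SOX9, a factor of hair follicle stem cells, rose to 47.8 ± 1.97 CPM in si-YTHDF2, against 19.0 ± 2.05 CPM in NC (SD, n = 3 each; 1.33), RUNX1 rose by 0.42 and BCL11B by 2.26. The AP-2 factor TFAP2A did not pass the test (-0.08; edgeR, adjusted p = 0.282). In the mesenchymal list 4 of 12 tested genes rose (33.3%, against 26.1% of all tested genes) and 0 fell by edgeR. The count that fell was also 0 at an unadjusted p under 0.05 and with DESeq2 or limma-voom, and 1 without NC replicate 3. N-cadherin (CDH2) averaged 11.9 ± 0.637 CPM in si-YTHDF2 and 1.17 ± 0.218 CPM in NC (SD, n = 3 each; 3.35; edgeR, adjusted p = 5.94e-09), and fibronectin (FN1) rose by 0.98. The repressor SNAI2, also a factor of basal keratinocytes, rose by 0.53, and ZEB2 rose by 2.14. Neither ZEB1 (0.11; edgeR, adjusted p = 0.900) nor vimentin (VIM, 0.43; edgeR, adjusted p = 0.424) passed the test. ZEB2 and BCL11B are also expressed in blood cells. All 10 erythroid markers had a higher mean in si-YTHDF2. Their sums were 1542 to 1773 CPM in si-YTHDF2 and 55.7 to 58.2 CPM in NC. Most of the si-YTHDF2 sum was HBB, at a mean of 1412 CPM. KLF1 and AHSP were at 0 counts in NC and near the floor in si-YTHDF2. There KLF1 had 2, 1 and 1 counts and AHSP 4, 2 and 0. The 8 fibroblast markers summed to 35.0 to 42.3 CPM in si-YTHDF2 and 26.1 to 78.5 CPM in NC. The part of RNA from other cells in these list counts was not tested.

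**Figure D4:**
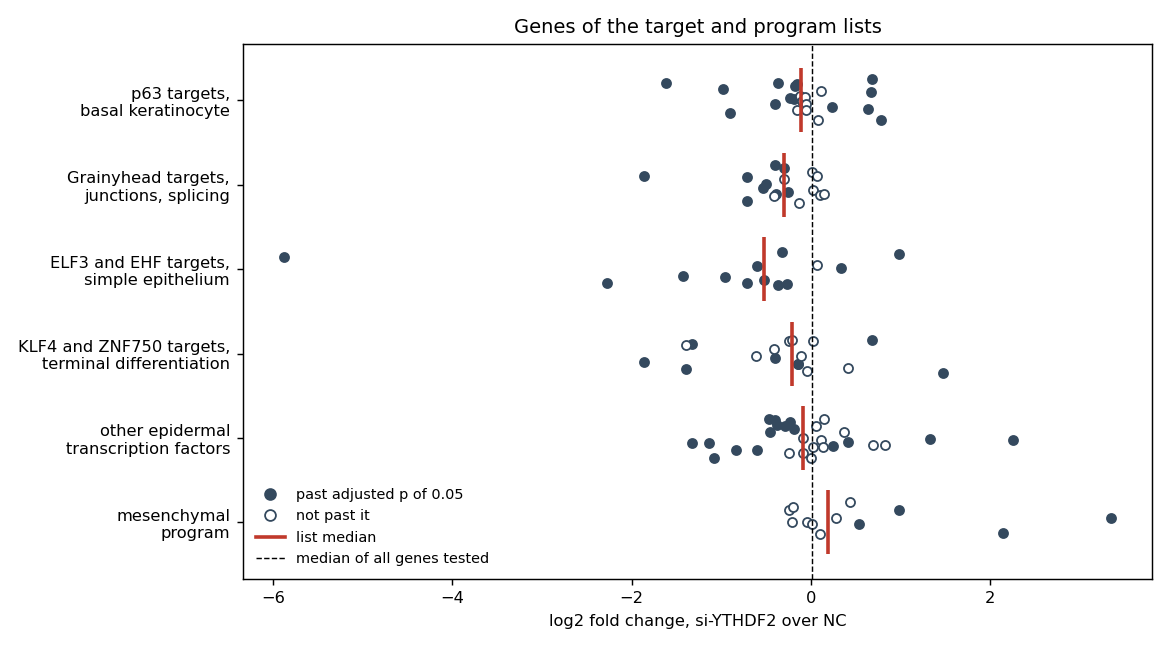
Log2 fold change, si-YTHDF2 over NC, of every tested gene in 6 lists (filled where adjusted p was under 0.05), with the list median in red and the median of all 12264 tested genes dashed. The ELF3 and EHF list has the lowest median at -0.52, KRT4 is the leftmost point at -5.88, and the mesenchymal list has no filled point left of 0.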

How the data were processed

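Per the file headers, the authors deposited a raw count per gene and library, in columns whose names carry the word Input, which no label explains; the submitters' processing notes name the build hg38, while aligner, counter and strand setting were not given in the sources used here. Ribosomal RNA was depleted before library construction, per the labels. The 6 further columns that repeat the libraries in a normalized form were not used, and 2 lines without a gene name were not used here. The members and lists were chosen with earlier results of these data known.

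Counts were tested with edgeR 4.0.16 (quasi-likelihood, TMM factors, filterByExpr, 12264 genes, no covariate) in R 4.3.3, checked on simulated data. CPM are TMM-scaled, and SE is the size of the log2 fold change divided by the square root of F. Permutation tests used scipy 1.17.1. Exon lengths came from GENCODE 29, and promoters from RefSeq (GRCh38.p14), which held 7 of the 9 factors looked up. Transcription factors were annotated from the deposited gene ontology terms, a choice made after seeing the data. From each list, up to 3 called genes in each direction with the smallest p were named, and every tested family relative; others were chosen after their values were seen. Some genes are not reported here. Alternatives included DESeq2 1.42.0 and limma-voom (limma 3.58.1).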

Additional observations from a re-analysis of the deposited data

How the results depend on the processing

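The counts of 8 factors lower and 1 higher stayed the same under RLE, upper-quartile and library-total scaling, DESeq2, limma-voom, both other filters, the replicate block, an adjusted p under 0.01 and each left-out library, except that 9 were lower without NC replicate 1, where ZNF750 was called. Log2 fold changes ran from -2.04 to -1.94 for ELF3, from -0.30 to -0.22 for TP63 and from 0.41 to 0.55 for KLF4. Equal replicate numbers did not deviate together (r = 0.055, 0.052 and 0.035), so they pair nothing; with the number as a replicate block 6438 genes were called, against 6285 without it, and no call of the 9 factors changed. With library totals 61.3% of called genes were higher, against 50.9%. The larger relative changes in the list counts were as follows, and smaller changes are left out. With library totals 1 GATA relative, 2 KLF relatives, 2 Grainyhead relatives and 2 Grainyhead targets were higher, and 5 p63 targets were lower; with limma-voom 2 KLF relatives were higher. At an adjusted p under 0.01, 0 ETS relatives and 1 differentiation gene were higher and 5 p63 targets lower, and at a mean count of at least 50, 1 differentiation gene was higher. Over the left-out libraries the count of higher genes ran from 0 to 1 for ETS relatives, 1 to 2 for KLF relatives, 0 to 1 for Grainyhead targets and 1 to 8 for differentiation genes, and the count of lower genes from 0 to 1 for the mesenchymal list and 5 to 9 for p63 targets. Among genes not called, the log2 fold change of KLF7 reversed; it ran from -0.0387 without si-YTHDF2 replicate 1 to 0.121 without si-YTHDF2 replicate 2. The cause of these changes was not tested. Depth limits ZNF750 and the genes under about 1 CPM.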

Other observations

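The transcripts of the 10 factors varied in base composition and in short sequence words. In the longest coding transcript of each gene (GENCODE 29), the G and C content ran from 42.4% in EHF to 58.3% in OVOL1, with a median of 51.5% over the 10 and 48.4% over 12239 tested genes. GGACT, the letters of a common m6A context, occurred at 2.60 per kb in ELF3, more than in 97.2% of tested genes, at 1.42 per kb in KLF4 and at 0.561 per kb in KLF5, with a median of 0.975 over the 10 and 0.925 over all tested genes. ATTTA, the letters of AU-rich decay elements, occurred 6 times in the annotated 3′ end of TP63, 5 times in those of GATA3 and KLF5, and 1 time in those of ELF3 and OVOL1, with a median of 3 over the 10 and 2 over all tested genes. These are counts of letters, with no measure of methylation or decay.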
